A study of Mus musculus with 4 samples.

Results

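The AS of 5 mouse genes of intracellular transport and of the microtubule skeleton was described in ECs that overexpressed NOVA2. The genes were taken by name, as every event that the deposited table lists for Myo5a, Ktn1, Trappc10, Mtap4 or Cep152. This gave 6 of the 1075 events and 5 of the 869 genes of the table. Cep152 had 2 events and each of the other 4 genes had 1. They comprised 4 cassette exons, 1 retained intron and 1 alternative acceptor site (Alt3). The genes were chosen by their PSI difference between the groups, on which the table had also been filtered, so the splicing values below are a description without a test.

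The cells were moEC, mouse ECs in culture that had been transduced with a lentivirus and kept under puromycin. The 2 control libraries came from cells carrying the empty HA vector, and the 2 NOVA2-overexpressing libraries from cells that stably carried human HA-NOVA2 in the vector pLenti-GIII-CMV. Cells were grown sparse for the overexpression experiment, and neither the number of clones nor separate cultures for the duplicates are given. The table holds splicing events and no expression levels, so neither the level of NOVA2 nor endothelial markers could be checked in it. Over the 1075 events the libraries held 124374 to 193436 corrected reads, and both control libraries were shallower than both NOVA2-overexpressing ones.

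Cargo in a cell moves along actin filaments and microtubules. Motor proteins such as myosins and kinesins carry vesicles, tethering complexes catch vesicles at the Golgi, proteins along the microtubule stabilise it, and centrosomes organise the microtubule array. Many of these proteins are long coiled coils, and AS of exons within them is known from many tissues. NOVA2 is an RNA-binding protein with KH domains that binds clusters of YCAY tetramers in pre-mRNA, where Y is a pyrimidine. These are TCAT or TCAC, which start with T, and CCAT or CCAC, which start with C. In the general model of NOVA proteins, clusters in or before an exon go with its skipping and clusters after it with its inclusion.

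The 4 cassette exons are shown with the last 100 nt of the intron before them, since they carry the exons that were included less in NOVA2-overexpressing ECs. The exon starts at base 101 of each line, on the transcribed strand of mm9, and capitals mark the YCAY tetramers, including overlapping matches. The lines cover chr9:75040091-75040271 (plus strand), chr14:48323995-48324163 (plus strand), chr10:77674221-77674467 (minus strand) and chr2:125397405-125397669 (minus strand).
Myo5a exon: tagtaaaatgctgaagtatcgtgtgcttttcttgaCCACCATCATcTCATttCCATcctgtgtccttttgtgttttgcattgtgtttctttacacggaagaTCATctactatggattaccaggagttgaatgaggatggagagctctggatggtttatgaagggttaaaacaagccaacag
Ktn1 exon: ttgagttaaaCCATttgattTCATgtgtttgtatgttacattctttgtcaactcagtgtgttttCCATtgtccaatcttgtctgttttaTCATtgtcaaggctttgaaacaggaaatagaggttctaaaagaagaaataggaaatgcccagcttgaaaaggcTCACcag
Trappc10 exon: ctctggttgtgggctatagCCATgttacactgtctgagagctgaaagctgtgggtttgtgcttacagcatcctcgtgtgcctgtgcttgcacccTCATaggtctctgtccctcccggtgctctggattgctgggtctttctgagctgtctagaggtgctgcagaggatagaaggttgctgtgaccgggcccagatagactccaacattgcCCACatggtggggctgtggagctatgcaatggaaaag
Cep152 exon: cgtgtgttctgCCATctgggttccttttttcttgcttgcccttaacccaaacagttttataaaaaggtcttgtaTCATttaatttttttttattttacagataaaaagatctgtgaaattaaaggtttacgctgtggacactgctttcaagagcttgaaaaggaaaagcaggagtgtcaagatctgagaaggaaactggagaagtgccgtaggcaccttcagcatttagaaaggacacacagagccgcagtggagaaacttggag

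Myo5a encodes myosin Va, an actin motor that walks processively and carries vesicles and organelles, and whose tail contains alternative exons. The event is an 81 nt exon at chr9:75040191-75040271 on the plus strand, exon 31 of 41 in the transcript Myo5a-003. It keeps the reading frame, holds no in-frame stop, and is present in 4 of the 14 annotated transcripts and skipped by 4. The PSI, which is the percent of transcripts that include the exon, was 92.1% and 95.8% in control replicates 1 and 2. In NOVA2-overexpressing replicates 1 and 2 it was 70.5% and 71.8%. Both NOVA2-overexpressing libraries were low and the groups were 20.3 points apart at their nearest. The means were 93.9% ± 2.60 (SD, n = 2) and 71.1% ± 0.912 (SD, n = 2), a dPSI of −22.8 points.

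The skipped form of Myo5a was 6.09% of transcripts in control and 28.9% in NOVA2-overexpressing ECs, 4.74-fold more. Its skipping junction had 18 and 11 reads in the control libraries and 90 and 95 in the NOVA2-overexpressing ones. The junction into the exon had 200 and 232 reads in control and 195 and 240 in NOVA2-overexpressing ECs, and the junction out of it 235 and 283 against 252 and 264. These reads are not scaled to depth. Per 1000000 reads of event coverage in the table, the skipping junction of Myo5a had 200.5 and 97.8 in control and 631 and 705 in NOVA2-overexpressing ECs. On that scale the junction into the exon had 2227 and 2064 against 1366 and 1782, and the junction out of it 2617 and 2517 against 1766 and 1960, so that skipping was higher and both inclusion junctions were lower without overlap. The PSI rested on 453 to 599 corrected reads per library, and 94.9% of all events had fewer in their shallowest library. The 95% Wilson intervals ran from 89.2 to 94.2% and from 93.7 to 97.2% in control, and from 66.6 to 74.3% and from 68.1 to 75.2% in NOVA2-overexpressing ECs. By the size of its dPSI it was number 35 of the 1075 events and number 12 of the 344 cassette exons with a lower PSI.

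**Figure D1:**
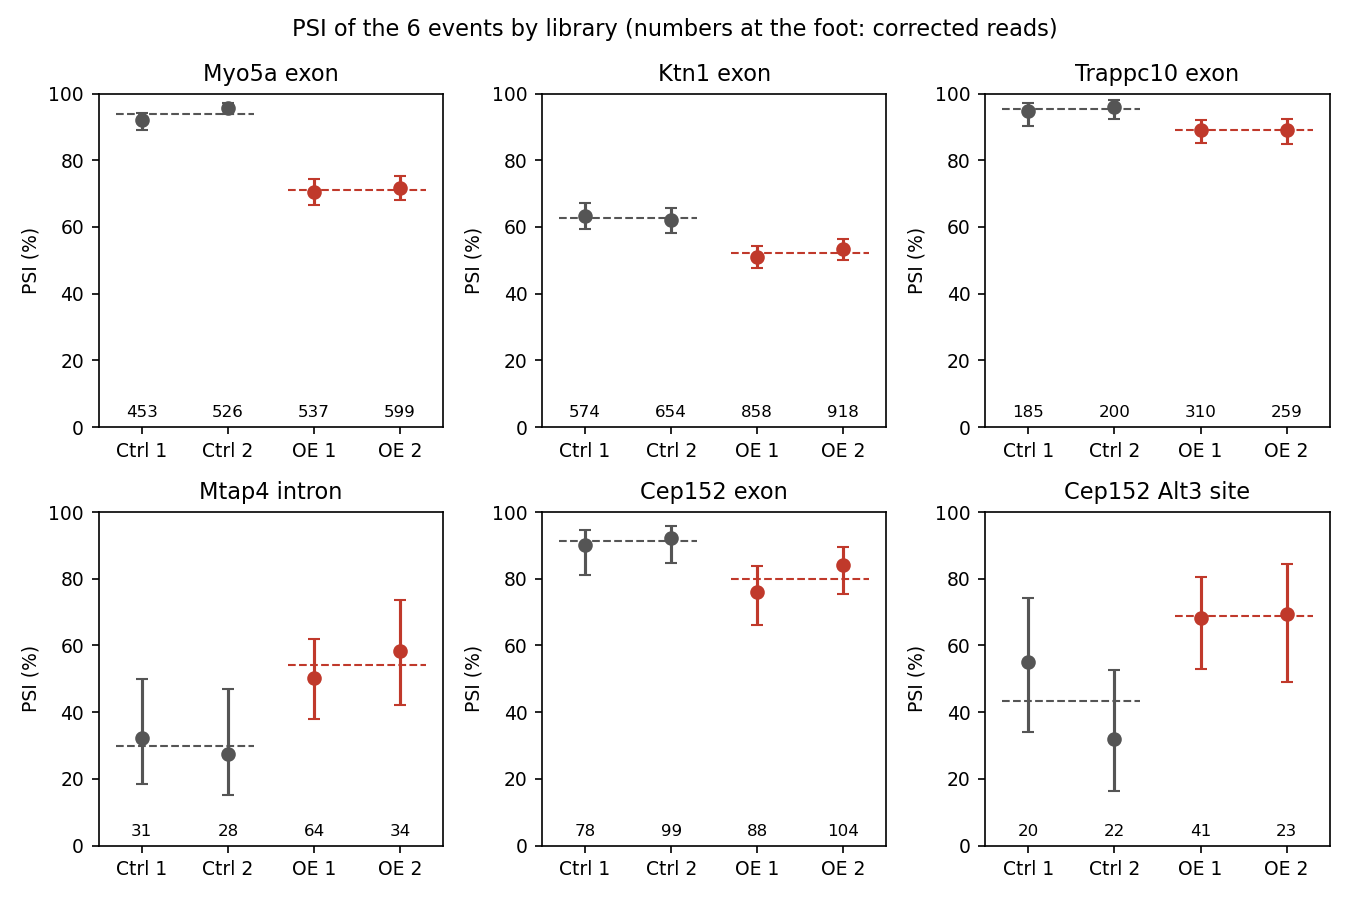
PSI in percent (y axis) of the 6 events in each of the 4 libraries (x axis, Ctrl for control and OE for NOVA2-overexpressing), with 95% Wilson intervals as bars, group means as dashed lines and the corrected reads at the foot. The Myo5a and Ktn1 exons, with 453 reads or more, have intervals that are apart between the groups, and the Mtap4 intron and the Cep152 Alt3 site have wide ones.

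Ktn1 encodes kinectin, a coiled-coil protein of the endoplasmic reticulum membrane that binds kinesin. Its exon of 69 nt lies at chr14:48324095-48324163 on the plus strand and is exon 23 of 42 in Ktn1-201. It keeps the frame, and 3 of the 6 annotated transcripts include it while 3 skip it. The PSI was 63.4% and 62.1% in control replicates 1 and 2, and 51.0% and 53.3% in NOVA2-overexpressing replicates 1 and 2. Control libraries were both higher, and the nearest libraries of the groups were 8.79 points apart. The means of 62.7% ± 0.898 (SD, n = 2) and 52.1% ± 1.67 (SD, n = 2) gave a dPSI of −10.6 points, just past the limit of 10 points that the study set for regulated events.

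Unlike the other 3 exons, the Ktn1 exon was included in only part of the transcripts of control cells, since its skipped form was already at 37.3% there and was at 47.9% in NOVA2-overexpressing ECs. The skipping junction had 164 and 195 reads in control and 340 and 346 reads in NOVA2-overexpressing ECs, or 1827 and 1734 against 2382 and 2569 per 1000000 reads of event coverage. The junction into the exon had 191 and 226 reads in control and 207 and 262 in NOVA2-overexpressing ECs, and the junction out of it 219 and 233 against 311 and 310. These reads are not scaled to depth. Per 1000000 reads of event coverage, the junction into the exon had 2127 and 2010 against 1450 and 1946, lower without overlap. On that scale the junction out of it had 2439 and 2072 against 2179 and 2302, and the groups overlapped. Reads out of the exon exceeded reads into it in every library, most in NOVA2-overexpressing replicate 1. The entry junction alone gave a dPSI of −13.3 points and the exit junction alone −8.30 points, so only the direction was common to both. Uncorrected junction reads put the mean PSI at 54.8% in control and 44.2% in NOVA2-overexpressing ECs, lower than the deposited values, with a dPSI of −10.6 points. With 574 to 918 corrected reads, the Wilson intervals were 59.4 to 67.3% and 58.3 to 65.7% in control and 47.6 to 54.3% and 50.0 to 56.5% in NOVA2-overexpressing ECs.

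**Figure D2:**
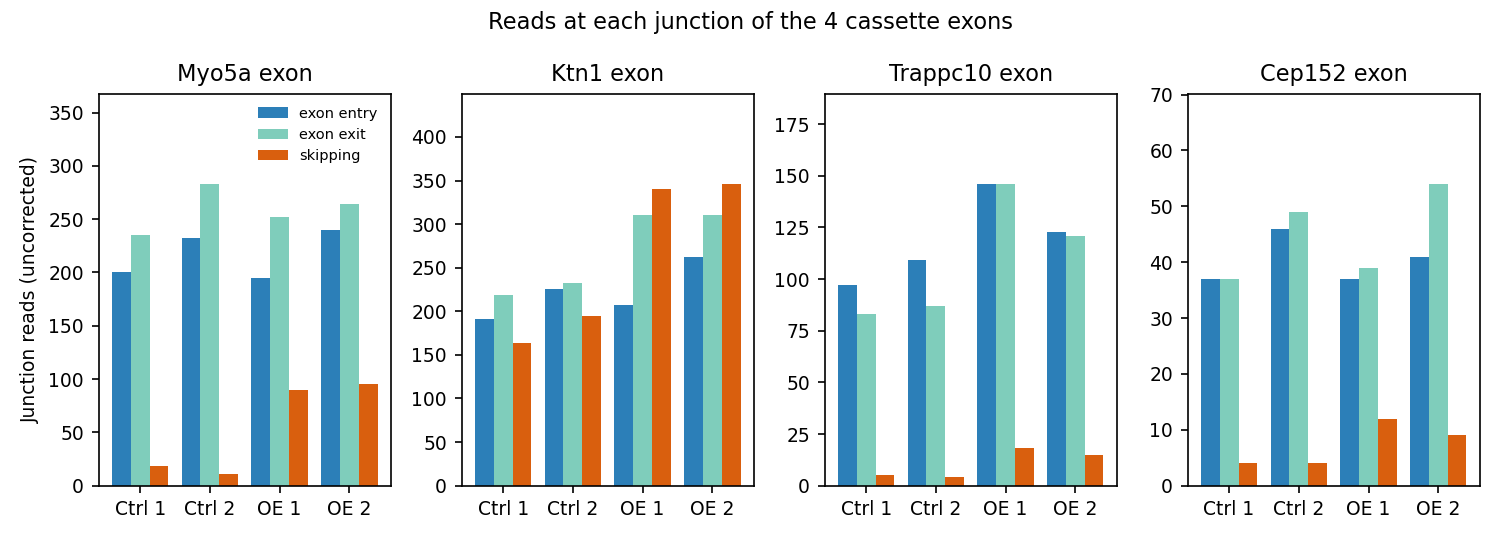
Uncorrected reads, not scaled to library depth (y axis, from 0, with a range of its own for each exon), at the junction into the exon, the junction out of it and the skipping junction of the 4 cassette exons, in the 2 control (Ctrl) and 2 NOVA2-overexpressing (OE) libraries (x axis). The skipping reads of Myo5a are 18 and 11 in control and 90 and 95 in NOVA2-overexpressing ECs, and those of Ktn1 exceed the reads of either inclusion junction only in the NOVA2-overexpressing libraries.

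Trappc10 encodes a subunit of the TRAPPII complex, which tethers vesicles at the Golgi and activates Rab proteins. The exon of 147 nt at chr10:77674221-77674367 on the minus strand is exon 8 of 23 in Trappc10-201, the 1 annotated transcript, so its skipping has no annotated transcript. It keeps the frame. The PSI was 94.7% and 96.1% in control replicates 1 and 2 and 89.02% and 89.05% in NOVA2-overexpressing replicates 1 and 2. The skipping junction had 5 and 4 reads in control and 18 and 15 in NOVA2-overexpressing ECs. The groups did not overlap in PSI and were 5.69 points apart at their nearest, close to the 5 points at which the table was filtered. The means were 95.4% ± 0.948 (SD, n = 2) and 89.0% ± 0.0212 (SD, n = 2), and the dPSI of −6.38 points stayed under the limit of 10. The skipped form was 4.59% in control and 10.97% in NOVA2-overexpressing ECs. The intervals overlapped at 185 to 310 reads, since the lower bound of 90.3% in control replicate 1 lay under the upper bounds of 92.0% and 92.4% in NOVA2-overexpressing ECs.

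Cep152 encodes a scaffold of the mother centriole that recruits the kinase Plk4 for centriole duplication. Its cassette exon of 165 nt at chr2:125397405-125397569 on the minus strand is exon 23 of 28 in Cep152-001, the 1 annotated transcript, and keeps the frame. The PSI was 90.2% and 92.2% in control replicates 1 and 2, and 76.0% and 84.1% in NOVA2-overexpressing replicates 1 and 2. The NOVA2-overexpressing libraries were both lower, but stood 8.07 points apart, a gap larger than that of 92.3% of cassette exons. The means of 91.2% ± 1.41 (SD, n = 2) and 80.0% ± 5.71 (SD, n = 2) gave a dPSI of −11.2 points. Without NOVA2-overexpressing replicate 1 it was −7.17 points, under the limit of 10. Skipping reads were 4 and 4 in control and 12 and 9 in NOVA2-overexpressing ECs, of 78 to 104 corrected reads, and the intervals of the groups overlapped.

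The second event of Cep152 is an acceptor choice at exon 7, 3 acceptors of which compete for 1 donor at chr2:125444109. They are shown as the 118 nt at chr2:125440110-125440227 on the minus strand of mm9, where capitals mark the AG before each acceptor.
Cep152 Alt3 site: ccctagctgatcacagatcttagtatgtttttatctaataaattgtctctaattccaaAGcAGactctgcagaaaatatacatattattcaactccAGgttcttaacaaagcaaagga

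The first acceptor, whose exon starts at position 125440167, is the annotated one. The second, at 125440164, is 3 nt further in, and the third, at 125440129, is 38 nt further in and is the site whose PSI was deposited. Use of the third site changes the reading frame, and the first in-frame stop then starts at base 6 after it. Its PSI, the share of reads at this site among those of the 3 acceptors, was 55.0% and 31.8% in control replicates 1 and 2, and 68.3% and 69.6% in NOVA2-overexpressing replicates 1 and 2. Both NOVA2-overexpressing libraries were higher, while the 2 control libraries lay 23.2 points apart, further than in 99.2% of Alt3 events. The means were 43.4% ± 16.4 (SD, n = 2) and 68.9% ± 0.905 (SD, n = 2), a dPSI of 25.5 points. These values came from 11 of 20, 7 of 22, 28 of 41 and 16 of 23 reads, so that 1 read was worth 5 points in control replicate 1. The Wilson intervals, 34.2 to 74.2% and 16.4 to 52.7% in control and 53.0 to 80.4% and 49.1 to 84.4% in NOVA2-overexpressing ECs, overlapped. All 119 Alt3 events were listed with a higher PSI, so the direction of this one is no result.

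Mtap4, an older symbol of Map4, encodes a protein that binds along microtubules and stabilises them in many cell types. Its event is a retained intron of 1524 nt at chr9:109982401-109983924 on the plus strand. The 2 ends of the intron are shown with 30 nt of each flanking exon, at chr9:109982371-109982470 and chr9:109983855-109983954 of mm9, and capitals mark the GT and AG of the deposited splice sites.
Mtap4 intron start: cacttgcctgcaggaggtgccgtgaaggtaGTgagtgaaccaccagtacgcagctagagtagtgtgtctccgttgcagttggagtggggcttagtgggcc
Mtap4 intron end: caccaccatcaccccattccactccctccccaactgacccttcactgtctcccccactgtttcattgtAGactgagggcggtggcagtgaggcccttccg

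No annotated transcript has this exact junction. In 6 of 11 transcripts the exon before it ends at position 109982397, 3 nt upstream of the deposited donor at 109982400, with the same acceptor, and the deposited donor occurs in 1 transcript with another acceptor. The intron lies between coding exons, the one before being exon 16 of 18 in a transcript that uses the nearby donor, and a retained intron would bring an in-frame stop that starts at its base 25. The deposited retention was 32.2% and 27.6% in control replicates 1 and 2 and 50.3% and 58.3% in NOVA2-overexpressing replicates 1 and 2. It sets reads at the ends of the intron against reads of the deposited junction. Whether reads spliced at the nearby annotated donor are counted is not shown, so it may not be the percent of all transcripts. The NOVA2-overexpressing libraries were both higher, with 18.1 points between the nearest libraries of the groups. The means of 29.9% ± 3.22 (SD, n = 2) and 54.3% ± 5.66 (SD, n = 2) gave a dPSI of 24.4 points, the highest among the 245 introns with higher retention.

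Few reads stood behind the Mtap4 intron. The spliced junction had 16 and 16 reads in control and 21 and 9 in NOVA2-overexpressing ECs, the junction at the start of the intron 9 and 5 against 21 and 14, and that at its end 6 and 7 against 21 and 11. The groups overlapped in spliced reads and not in the reads of either intron end, and the same held per 1000000 reads of event coverage. Corrected reads were 28.2 to 63.7 per library, and the coverage scores of vast-tools were LOW in both control libraries, OK in NOVA2-overexpressing replicate 1 and VLOW in NOVA2-overexpressing replicate 2. The intervals, 18.6 to 49.9% and 15.3 to 47.1% against 38.1 to 61.9% and 42.2 to 73.6%, overlapped. The event therefore ranked number 21 of 1075 by dPSI on a depth that did not part the libraries.

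All 4 cassette exons had a lower PSI in NOVA2-overexpressing ECs, as did 62.7% of the 549 cassette exons in the table. All 4 had lengths that are multiples of 3, as did 52.6% of the 549. The PSI did not overlap between the groups for any of the 6, as for 100% of all events by the filter. An absolute dPSI of at least 10 points was reached by 5 of the 6 events, with Trappc10 as the exception, and by 53.1% of all events. It was reached downward by 3 (20.1% of all events) and upward by 2 (33% of all events). The 3 downward events were cassette exons, and 33.2% of the 549 cassette exons were lower by as much. The median absolute dPSI was 17.0 points over the 6 events and 10.3 over all. Wilson intervals were apart between all libraries of the groups for 2 events, Myo5a and Ktn1, and for 11.1% of all events. The same 2 remained apart when the junctions into and out of the exon were averaged, which gives wider intervals, and 8.47% of all events did. Both are cassette exons, and among cassette exons alone these shares were higher, at 20% and 15.1%. None of these shares is evidence for the genes, because the table was filtered on the same contrast.

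**Figure D3:**
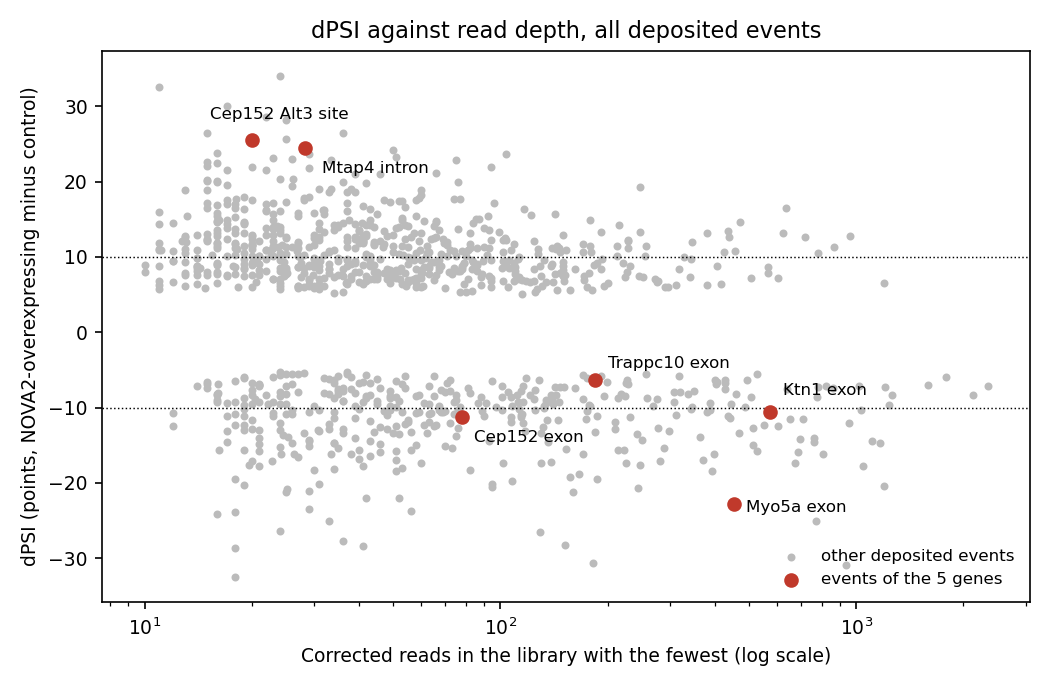
The dPSI in points (y axis) against the corrected reads of the library with the fewest (x axis, log scale) for all 1075 events in grey and the 6 events of the 5 genes in red, with dotted lines at 10 points. The events with a dPSI of 25.5 and 24.4 points rest on 20 and 28.2 reads, and the Myo5a exon combines −22.8 points with 453.

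Events of other genes with the most similar PSI over the 4 libraries were sought among those scored OK or better. The Myo5a exon was nearest to an exon of Mll5 at a Euclidean distance of 3.09 points and to the 9 nt exon of Macf1, a linker of microtubules and actin, at 5.80. For Ktn1 the nearest were exons of Sertad2 at 4.96 and Dicer1 at 5.29 points, and for Trappc10 exons of Ociad1 at 1.41 and Numa1, a spindle pole protein, at 1.57. The Cep152 exon was nearest to exons of Ttc3 at 4.65 and H2-T22 at 5.41. The 2 shallow events were themselves not scored OK in all libraries, so events scored like them were not searched. Among the events searched they had no such close neighbour. The Mtap4 intron was 9.68 points from an intron of Exo1 and 10.9 from an exon of Prrc2b. The Alt3 site of Cep152 was 13.2 points from an exon of Klra4 and 17.8 from a site of Sirt3.

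Sequence around the exons was then searched for the 4 YCAY tetramers on the transcribed strand alone, as a description. In the last 200 nt of the intron before it, the Myo5a exon had 8 of these tetramers, and 7.65% of the 549 cassette exons had as many. Of these, 5 stood within the run from 65 to 45 nt before the exon that the printed sequence shows in capitals. The exon itself held 1 and the first 200 nt after it 3. The exon of Trappc10 had 4 before, 1 within and 5 after, and 23.7% of cassette exons had as many after. Ktn1 had 4 in the 142 nt of its short upstream intron, 1 in the exon and 0 after, and only 5.46% of cassette exons had a shorter upstream intron. Cep152 had 3, 0 and 1. Per 100 nt of the exon and both windows this was 2.49 tetramers for Myo5a, 1.83 for Trappc10, 1.22 for Ktn1 and 0.708 for Cep152, against a median of 1.71 over the 549 cassette exons. The densities of Myo5a and Trappc10 were above that median and those of Ktn1 and Cep152 under it, with 96.2% of cassette exons at least as dense as Cep152. At least 1 tetramer stood before 94.5% of cassette exons, within 78.5% and after 94.5%.

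**Figure D4:**
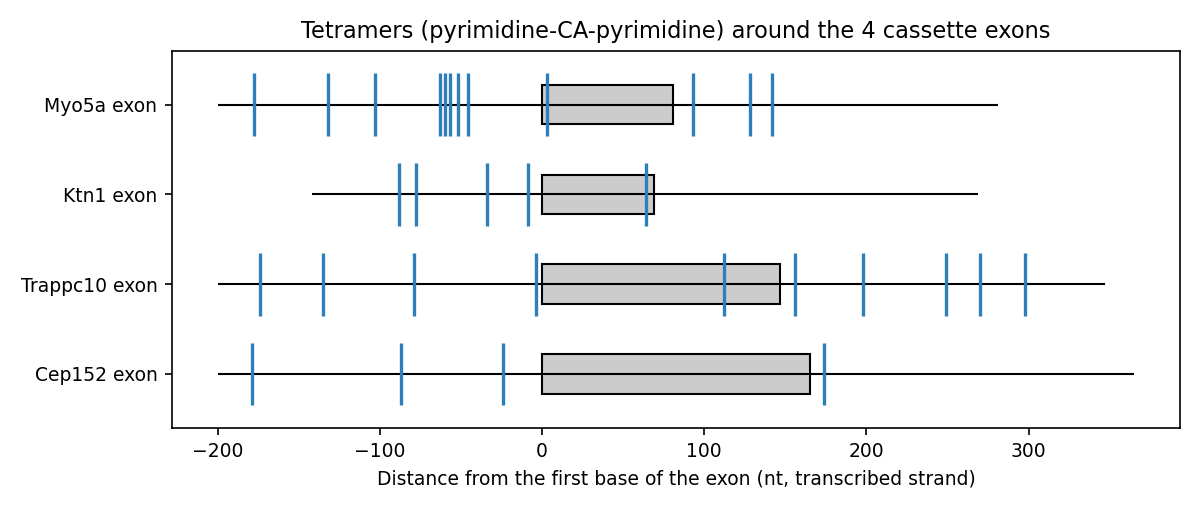
Positions of YCAY tetramers (blue lines) around the 4 cassette exons (grey boxes), by distance in nt from the first base of the exon on the transcribed strand (x axis), with 200 nt of intron on either side or the whole intron of 142 nt before Ktn1. Myo5a has 8 before the exon, Trappc10 has 5 after it and Cep152 has 4 in all.

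The Mtap4 intron held 45 of the tetramers, 2.95 per 100 nt, against a median of 1.59 over the 311 introns of the table. At least as high a density was found in 7.40% of these introns. There were 7 in its first 200 nt and 9 in its last 200 nt, and 4.50% and 0.643% of the introns had as many. Introns under 200 nt give shorter windows in these counts, and the Mtap4 intron was longer than 76.5% of the introns. At the Cep152 acceptors, 7 tetramers stood in the 200 nt before the first acceptor, as many as in 10.1% of the Alt3 events, and 0 between the first and the third.

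Event coverage, the reads that cover an event whether included or not, was not the contrast on which the events were selected, and it was tested. Events with low coverage in a library may be missing from the table, so the test covers the listed events only. Scaled to the library sum, event coverage follows relative RNA abundance. In bulk RNA a smaller share of cells with the RNA and less of it per cell cannot be told apart. Per 1000000 reads of the library sum, the Myo5a exon had 2623 and 2388 in control and 2196 and 2577 in NOVA2-overexpressing ECs, and the groups overlapped. limma gave a log2 difference of −0.07 ± 0.09 (SE, adjusted p = 0.728). The Ktn1 exon had 4110 and 3776 in control against 4197 and 4693 in NOVA2-overexpressing ECs, both above the control values, with a log2 difference of 0.17 ± 0.08 (limma, adjusted p = 0.219). The other log2 differences were 0.14 for Trappc10, 0.19 for the Mtap4 intron, −0.26 for the Cep152 exon and 0.08 for its Alt3 site, with adjusted p from 0.571 to 0.913 in limma. Of the 6 events, 0 passed an adjusted p of 0.05 in the limma model across all events, and 6.51% of all events did. The Ktn1 exon had an unadjusted p of 0.0360 in limma, the 1 value under 0.05 among the 6. The 95% intervals of the log2 difference were −0.26 to 0.11 for Myo5a and 0.01 to 0.33 for Ktn1, and −0.69 to 0.17 and −0.46 to 0.61 for the Cep152 exon and Alt3 site, so differences of that size remain possible.

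**Figure D5:**
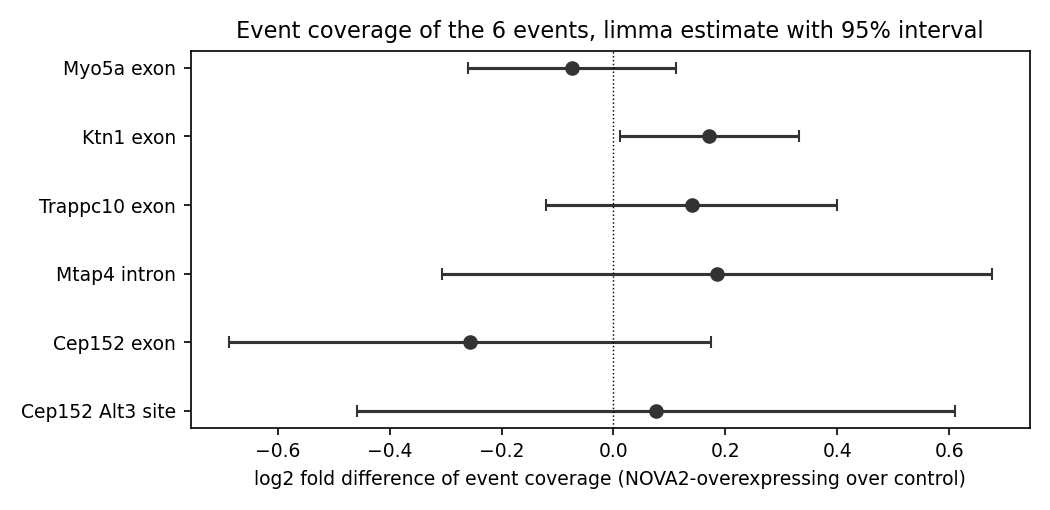
Log2 difference of event coverage (x axis, NOVA2-overexpressing over control) for the 6 events, with limma estimates as points and their 95% intervals as bars. The interval of Ktn1 runs from 0.01 to 0.33 and those of the other 5 events include 0.

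Related genes were taken from 8 lists of 270 genes in all, of which 27 had an event in the table and 22 were outside the 5 genes. These 27 genes had 37 events. Of these, 10 (27.03%) were higher by at least 10 points, against 33% of all events, and 7 (18.9%) were lower by as much, against 20.1%. A lower PSI was listed for 17 of their 26 cassette exons (65.4%), close to the 62.7% of all cassette exons. Among 38 myosin heavy chains 5 had an event, and after Myo5a the largest dPSI was that of a Myo9a exon, with a mean PSI of 28.8% ± 9.33 in control and 50.3% ± 0.792 in NOVA2-overexpressing ECs (SD, n = 2 each). That exon rested on 22 to 57 reads, was not scored OK in every library and stood at 22.2% and 35.4% in the 2 control libraries. None of 22 partners of myosin V had an event in the table. Kinesins and kinesin anchors had an event in 5 of 49 genes, and the largest dPSI was that of an exon of the motor Kif1b, at 12.2% ± 1.18 in control and 23.4% ± 1.49 in NOVA2-overexpressing ECs (SD, n = 2 each), opposite in direction to Ktn1.

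Of dynein, dynactin and adaptor genes 2 of 32 had an event, and the mitochondrial adaptor Trak1 had the largest dPSI with 11.2 points at a donor site. Of the 15 TRAPP subunits Trappc10 was the 1 with an event, and of 23 Golgi tethers 2 had one, the larger in Golga1 with a dPSI of 9.53 points. Microtubule-associated proteins had 8 events in 4 of 41 genes, 6 of them lower, and the largest was the Mtap4 intron. Centriole and centrosome genes had 13 events in 8 of 50 genes, 8 of them higher, and the largest was the Alt3 site of Cep152. Of these 8, 5 were alternative splice sites, all of which the table lists as higher, and among the 8 exons and introns of these genes 3 were higher and 5 lower. The lists had no test, since only events that passed the filter of the authors are in the table.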

How the data were processed

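RNA-seq was analysed for 2 control and 2 NOVA2-overexpressing libraries of moEC. The authors ran vast-tools on mm9 (its version is not given in the sources used here), and the deposited table holds, as a percent, the PSI of each event and library, with a quality string that gives a coverage score, junction reads and the reads after mappability correction. The authors kept events in which each NOVA2-overexpressing library differed from each control library by more than 5 points. Their dPSI and pooled columns hold their own comparison and group values; the dPSI was not used and the pooled PSI served only as an alternative. There are 12 further columns of other samples' values that were not used here.

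The dPSI was taken as the NOVA2-overexpressing mean minus the control mean. Wilson intervals (scipy 1.17.1) took the rounded corrected reads, in which an included exon is counted at both junctions, and cover counting error only. Event coverage, the mean of the inclusion junction reads plus the skipping reads (corrected reads for introns and splice sites), was scaled to the library sum over the table and fitted for all 1075 events with limma 3.58.1 in R 4.3.3 (log2, pseudocount 0.5, mean-variance trend, Benjamini-Hochberg, threshold 0.05). On data simulated for this comparison, 1075 events with 200 changed, limma recovered 84.5% of the changes of 2-fold with 9 false calls, and 36.0% of those of 1.5-fold with 5. The spread between simulated libraries was assumed and not estimated from these libraries. The shares cover all depths together and do not give the recovery for shallow events. An exact permutation test of 2 against 2 libraries cannot go below p = 0.333, and p-values measure only the spread between these libraries, which may be technical. The numbers 1 and 2 of the replicates are not said to pair libraries.

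Sequences and transcripts came from the mm9 genome (NCBIM37) and its GENCODE annotation. As a check of build and strand, 546 of 549 cassette exons followed AG and 544 preceded GT. Protein sequences were not used here. The genes and lists were chosen with earlier results of these data known. Named genes are the 5 genes, the gene with the largest dPSI in each list, and the 2 nearest events of other genes. Myo9a was named after its values were seen. Alternatives changed the PSI estimate, dPSI limit, coverage scale, pseudocount, filter, weights, replicate block and motif window, or left out each library.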

Additional observations from a re-analysis of the deposited data

How the results depend on the processing

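The dPSI of the 6 events kept its direction under the 28 alternatives that used all libraries, and 26 of these moved it by less than the spread between replicates. The exceptions were the Ktn1 exon at the entry junction alone (−13.3 points) and at the exit junction alone (−8.30). These alternatives reused the reads on which the table was filtered, so the kept direction is no support for the events. For the summed reads and the pooled PSI of the authors the filter fixes it. The filter on the table fixes the direction when 1 library is left out, so the sign is no sign of stability there, and the values were −24.6 to −20.9 points for Myo5a, −11.8 to −9.43 for Ktn1, −7.05 to −5.71 for Trappc10, −15.2 to −7.17 for the Cep152 exon, 13.9 to 37.1 for its Alt3 site and 20.4 to 28.4 for the Mtap4 intron. Of the 6 events, 3 were past 15 points, 3 were past 10 points with a score of OK or better in all libraries, and 3 to 5 were past 10 points with 1 library left out; the lowest number came without NOVA2-overexpressing replicate 1, where Ktn1 and the Cep152 exon were at −9.43 and −7.17 points.

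Event coverage was changed in 70 events in limma, in 52 with a replicate block (−0.07 for Myo5a and 0.17 for Ktn1 on the log2 scale, adjusted p = 0.781 and 0.351), and in 20 to 56 with 1 library left out: 43 without control replicate 1, 29 without NOVA2-overexpressing replicate 1 and 20 without NOVA2-overexpressing replicate 2. Deviations of libraries with the same number correlated by −0.02 over 1075 events. This cannot show whether such libraries were prepared together, which the labels do not say. The block moved no count by over 1.5 times. No event of the 5 genes passed in any alternative, with adjusted p from 0.0961 to 0.991 in limma. The sign of the difference turned for the Mtap4 intron when its junctions were averaged as for exons (−0.058 on the log2 scale), which was added after seeing the data. With 1 library left out it ranged from −0.21 to 0.58 for the Mtap4 intron, −0.29 to 0.44 for the Alt3 site of Cep152, −0.39 to −0.13 for its exon, −0.19 to 0.041 for Myo5a, 0.09 to 0.25 for Ktn1 and 0.03 to 0.25 for Trappc10. With all corrected reads, which count an included exon at both junctions and so move with the PSI, Myo5a was at −0.22 (interval −0.38 to −0.05), which gave the lowest of these adjusted p, and Ktn1 at 0.10. The cause was not tested. The control tetramers, TGAT or TGAC with T first and CGAT or CGAC with C first, stood at 0.624, 0.487, 0.548 and 0.354 per 100 nt around the Myo5a, Ktn1, Trappc10 and Cep152 exons. They were below the YCAY tetramers there as over all 549 cassette exons, where the medians were 0.877 and 1.71, and CGAT and CGAC contain CpG. Depth limits the Mtap4 intron and the Cep152 Alt3 site, where 1 read is worth 1.57 to 5 points.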
